A study of Mus musculus with 65 samples.

Results

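Polg2 encodes the accessory subunit of DNA polymerase gamma, the enzyme that copies mitochondrial DNA. The gene was cut at 3 sites in mouse hepatocytes, each with its own guide RNA, named Polg2-sg1, Polg2-sg2 and Polg2-sg3 in the labels. The libraries were picked out by their labels, with no measured value in the rule: 3 KO libraries and 3 EV libraries, matched by site, which makes 6 of the 65 libraries of the series. KO libraries came from mice that had received an adeno-associated virus (AAV) carrying sgRNAs, and EV libraries from mice given the same kind of virus with an empty sgRNA. Both groups have the genotype Rosa-LSL-Cas9-EGFP, in which Cas9 and EGFP lie behind a stop cassette that Cre removes, and both were sampled as liver hepatocytes 2 weeks after injection (wpi) into the retro-orbital sinus. The labels do not give the source of Cre, the promoter that drives it, the age or sex of the mice, or whether sites share an animal. Each site has 1 library per group, and the variation from mouse to mouse cannot be estimated.

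Cas9 cuts both DNA strands at the site its guide matches, and the cell rejoins the ends. End joining of nearly intact ends leaves small insertions or deletions (indels). When exposed repeats on either side of the break pair with each other, the sequence between them and a single repeat copy are lost, a route known as microhomology-mediated joining. In coding sequence, an indel whose length is not a multiple of 3 bp shifts the reading frame. The accessory subunit holds the catalytic subunit Polg on its template, and mouse embryos that lack either subunit lose their mitochondrial DNA.

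Polg2 (gene ID 50776) lies on chromosome 11 of GRCm38.p6, from 106768204 to 106779537, per the RefSeq annotation. Guide and amplicon sequences were not used here, so no site is placed in an exon or an intron and the strand of each template is not known. "Before" and "after" the cut below follow the order of bases in the template. Frame classes describe lengths only.

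Depth ran from 4252 to 19549 reads in the KO libraries and from 2931 to 18758 reads in the EV libraries. Each read reports the junction at the cut in 1 amplified molecule. Intervals are 95% intervals, exact (Clopper-Pearson) for shares and Newcombe for differences. Without molecular identifiers reads are not independent molecules, so intervals and tests cover counting error only, and a Fisher's exact test here compares 2 libraries and not 2 conditions. Unedited reads of each KO library reached 1 base less on either side of the cut than those of its EV library; at sg1 they held 149 bases before the cut and 131 after it in KO, against 150 and 132 in EV. A deletion that runs past the amplified stretch is not seen.

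The first comparison asks how much of each site carried an indel. All 3 sites were edited in the KO libraries, sg2 and sg3 nearly completely and sg1 to about 65%. At sg1, 12772 of 19549 KO reads held an indel, or 65.3% (64.7 to 66.0), against 23 of 18758 EV reads, or 0.123% (0.0777 to 0.184). At sg2 the KO library held 4024 indel reads of 4252, or 94.6% (93.9 to 95.3), against 7 of 2931 in EV, or 0.239% (0.0961 to 0.491). At sg3 the KO library held 13091 indel reads of 13756, or 95.2% (94.8 to 95.5), against 36 of 11841 in EV, or 0.304% (0.213 to 0.421). The KO and EV intervals are far apart at each site.

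KO exceeded EV by 65.2 percentage points at sg1 (64.5 to 65.9), by 94.4 at sg2 (93.6 to 95.05) and by 94.9 at sg3 (94.5 to 95.2). Each difference passed Fisher's exact test (two-sided, Benjamini-Hochberg adjusted over 21 sites), with a p too small to be held as a number above 0. All sites of the series passed this comparison (100% of 21), so passing it sets Polg2 apart from nothing.

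**Figure D1:**
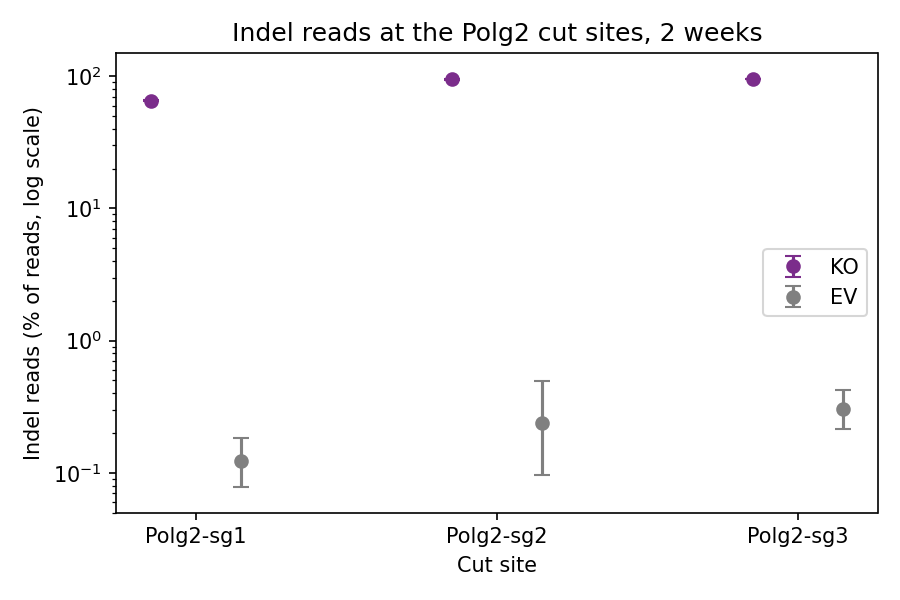
Share of reads with an indel (percent of reads, log axis) in the KO and EV libraries of the 3 Polg2 sites; points are single libraries and bars exact 95% intervals. KO points lie at 65.3%, 94.6% and 95.2%, while EV points lie between 0.123% and 0.304%.

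Between guides, sg1 left far more reads unedited than sg3 or sg2. Reads with no indel made up 4.83% at sg3, 5.36% at sg2 and 34.7% at sg1. The indel share was 29.8 points higher at sg3 than at sg1 (29.1 to 30.6) and 29.3 points higher at sg2 than at sg1 (28.3 to 30.2), both past Fisher's exact test adjusted over all 210 pairs of sites. It was 95.2% at sg3 and 94.6% at sg2, a difference of 0.528 points (-0.210 to 1.33) that did not pass (Fisher's exact test, adjusted p = 0.174). Of all 210 pairs of sites, 95.7% passed. The sg3 minus sg2 difference passed at 2.68 points with indels reaching farther than 5 bp from the cut counted as unedited. It turned to -20.3 points with 1 bp indels counted as unedited. Among the 21 sites the indel share ranked 14th at sg1, 6th at sg2 and 3rd at sg3 from the top. The reads came from 2 tiles of the sequencer. At sg1, the KO library in which the tiles differed most, the share was 65.01% on one and 65.6% on the other (Fisher's exact test, two-sided, unadjusted p = 0.359).

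The repair products of sg1 and sg3 were dominated by a single-base insertion at the cut, those of sg2 by short deletions after the cut. The insertion of 1 bp with no template base lost held 9990 indel reads at sg1, or 78.2% (77.5 to 78.9), and 10836 at sg3, or 82.8% (82.1 to 83.4). At sg2 it held 1044 reads, or 25.9% (24.6 to 27.3), and came second. The leading allele of sg2 was the loss of the first base after the cut, with 1364 reads or 33.9% of indel reads. Next at sg2 was the loss of the first 2 bases after the cut, with 805 reads or 20.005%. No other sg2 allele held more than 4.52% of indel reads.

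All insertions together made up 88.2% of indel reads at sg3 (87.6 to 88.7), 30.3% at sg2 (28.9 to 31.8) and 85.4% at sg1 (84.8 to 86.1). The share at sg3 was 57.8 points above that at sg2 (56.3 to 59.4), and the share at sg2 was 55.1 points below that at sg1 (difference -55.1, -56.7 to -53.6). The share at sg3 was 2.72 points above that at sg1 (1.90 to 3.55; Fisher's exact test, adjusted p = 1.2e-10 over 210 pairs). All 3 pairs passed, as did 97.1% of the 210 pairs of sites. These differences rest on the leading alleles, an insertion at sg1 and sg3 and a deletion at sg2. Leaving out the most frequent allele of each library thus has to lower the insertion share at sg1 and sg3 and raise it at sg2. With it left out, sg3 minus sg2 was -14.6 points and sg2 minus sg1 was 12.7 points. The sg3 minus sg1 difference was -1.87 points and no longer passed. With 1 bp indels left out instead, sg3 minus sg1 was -4.27 points and passed (Fisher's exact test, adjusted p = 0.00865). Among the 21 sites, sg3 ranked 3rd, sg1 5th and sg2 19th by insertion share.

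**Figure D2:**
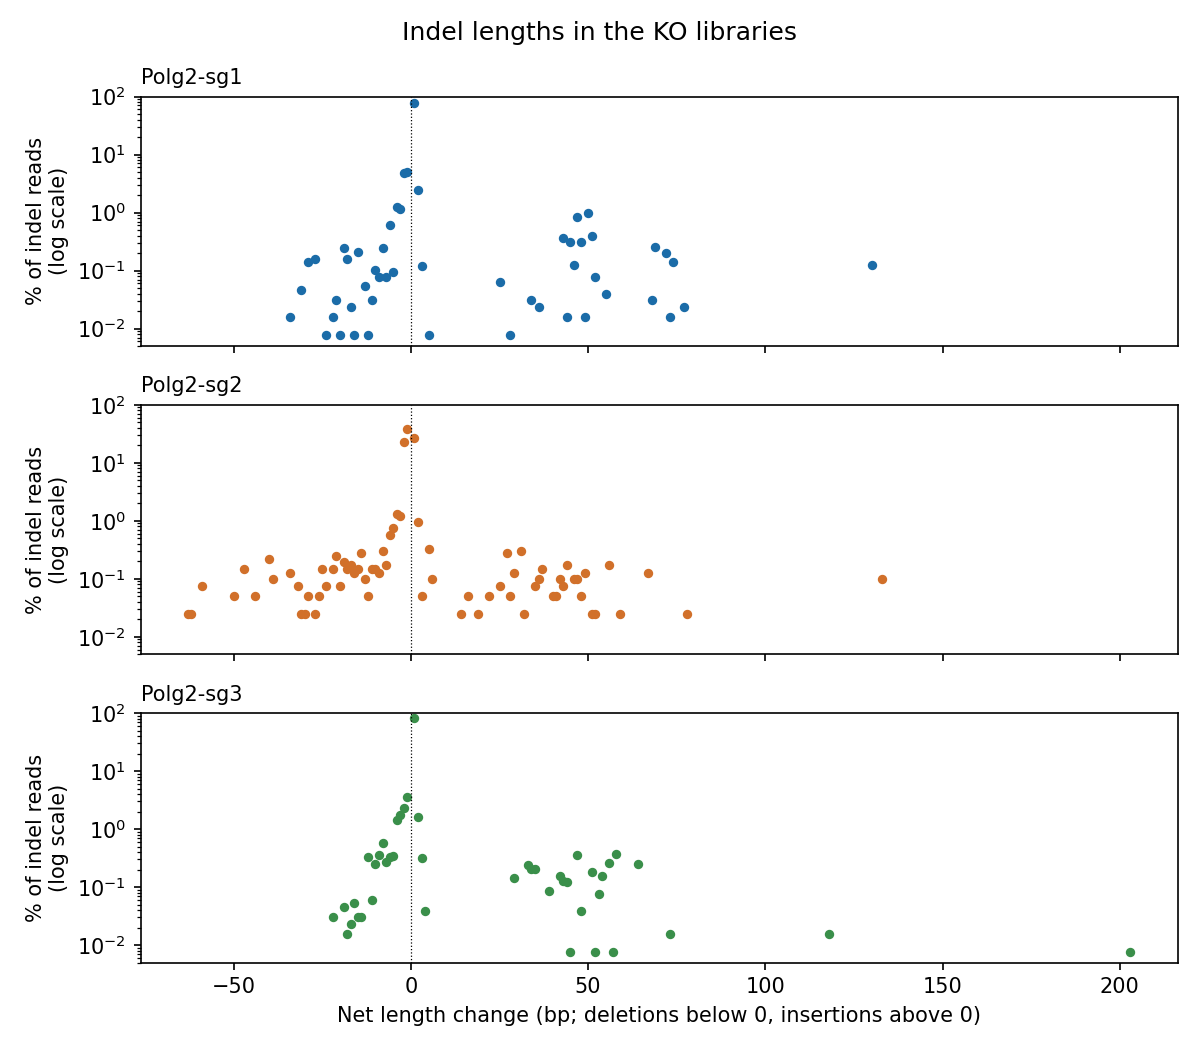
Share of indel reads (percent, log axis) at each net length (bp, deletions below 0 and insertions above 0) in the KO library of each Polg2 site; each point is 1 length. The 1 bp insertion leads at sg1 with 78.5% and at sg3 with 83.1%, while 1 bp deletions lead at sg2 with 39.0%; no insertion length between 5 and 25 bp occurs at sg1 and none between 4 and 29 bp at sg3.

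Insertions fell into short ones and long ones with a gap between them. Insertions of 2 to 19 bp held 334 reads at sg1, 62 at sg2 and 261 at sg3. The insertion of 2 bp at the cut made up most of them, with 318, 39 and 215 reads at sg1, sg2 and sg3. At sg1 the longest of this class was 5 bp and the next longer insertion was 25 bp. At sg3 the corresponding lengths were 4 bp and 29 bp. At sg2 a few reads lay in between, up to 19 bp.

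Insertions of 20 bp or more held 559 indel reads at sg1, or 4.38% (4.03 to 4.75), 102 at sg2, or 2.53% (2.07 to 3.07), and 398 at sg3, or 3.04% (2.75 to 3.35). Their median length was 50 bp at sg1, with quartiles of 47 and 51 bp, 40.5 bp at sg2, with quartiles of 31 and 48 bp, and 47 bp at sg3, with quartiles of 35 and 56 bp. Over the 20 sites of the series with at least 20 such reads the median ran from 34 to 53 bp. The longest insertion was 130 bp at sg1, 133 bp at sg2 and 203 bp at sg3.

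Most long insertions kept every template base, in 79.4% of these reads at sg1 (75.8 to 82.7), 60.8% at sg2 (50.6 to 70.3) and 88.2% at sg3 (84.6 to 91.2). The leading long alleles were insertions of 50 bp with 111 reads and 47 bp with 105 reads at sg1, and of 58 bp with 49 reads at sg3. At sg2 the leading one added 31 bp net after the loss of 7 bases before the cut and held only 7 reads. The bases inserted are not in the tables, so their source is not analysed here. In EV, sg1 held 2 reads with long insertions, of 47 and 48 bp, and sg2 and sg3 held none, which allows up to 0.102% and 0.0253% of EV reads.

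Indels of 20 bp or more in either direction made up 3.07% of indel reads at sg3 (2.78 to 3.38), 4.30% at sg2 (3.69 to 4.97) and 4.80% at sg1 (4.44 to 5.18). The share was lower at sg3 than at sg1 (difference -1.73 points, -2.21 to -1.26) and lower at sg3 than at sg2 (difference -1.23 points, -1.96 to -0.567), both past Fisher's exact test adjusted over 210 pairs. The difference for sg2 minus sg1, -0.500 points (-1.20 to 0.260), did not pass it (adjusted p = 0.209, exact test). So 2 of the 3 pairs passed, against 93.3% of all pairs. The sg3 minus sg2 difference turned to 2.95 points without alleles under 10 reads and to 1.58 points without alleles under 0.1% of indel reads. At sg2 the 102 long insertions lay in 37 alleles and the 71 long deletions in 29. For sg2 minus sg1 the sign turned, without passing, to 0.277 points with 10 bp as the minimum and to 11.9 points with each allele counted once.

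Deletions differed in length, side and edges. They made up 14.6% of indel reads at sg1, 69.7% at sg2 and 11.8% at sg3. Deletions of 1 bp alone held 642 reads at sg1, 1569 at sg2 and 476 at sg3. The median length of all deletion reads was 2 bp at sg1, 1 bp at sg2 and 3 bp at sg3. Deletions of 20 bp or more held 54 reads at sg1, 71 at sg2 and 4 at sg3, in 9, 29 and 1 alleles. As a share of indel reads this was 0.423% (0.318 to 0.551) at sg1, 1.76% (1.38 to 2.22) at sg2 and 0.0306% (0.00833 to 0.0782) at sg3, intervals that do not overlap. The longest deletion was 34 bp at sg1, 63 bp at sg2 and 22 bp at sg3.

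In deletions with clean edges, meaning no microhomology and no inserted base, the lost bases lay mainly before the cut at sg1 and after it at sg2. At sg1, 733 of 934 such reads lost bases only before the cut, or 78.5% (75.7 to 81.1), and 140 only after it. At sg2, 224 of 2478 lost bases only before the cut, or 9.04% (7.94 to 10.2), and 2216 only after it, or 89.4% (88.1 to 90.6). At sg3, 391 of 593 lost bases only before the cut, or 65.9% (62.0 to 69.7), and 194 only after it. The intervals of the 3 sites for loss before the cut do not overlap. Deletions with exactly 1 inserted base are not in these counts. Of those, 748 of 751 at sg3 lost bases only before the cut, against 51 of 171 at sg1 and 18 of 93 at sg2. The order of sg1 and sg3 is therefore given for clean edges only. Clean-edged single-base deletions numbered 438 before and 79 after the cut at sg1, 182 before and 1364 after at sg2, and 93 before and 87 after at sg3. With net 1 bp deletions that hold inserted bases counted too, the numbers were 466 and 175 at sg1, 198 and 1365 at sg2, and 384 and 90 at sg3. The near-even split at sg3 thus held for clean edges only. Because the orientation of the templates is not known, before and after cannot be matched to the guide's own ends.

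**Figure D3:**
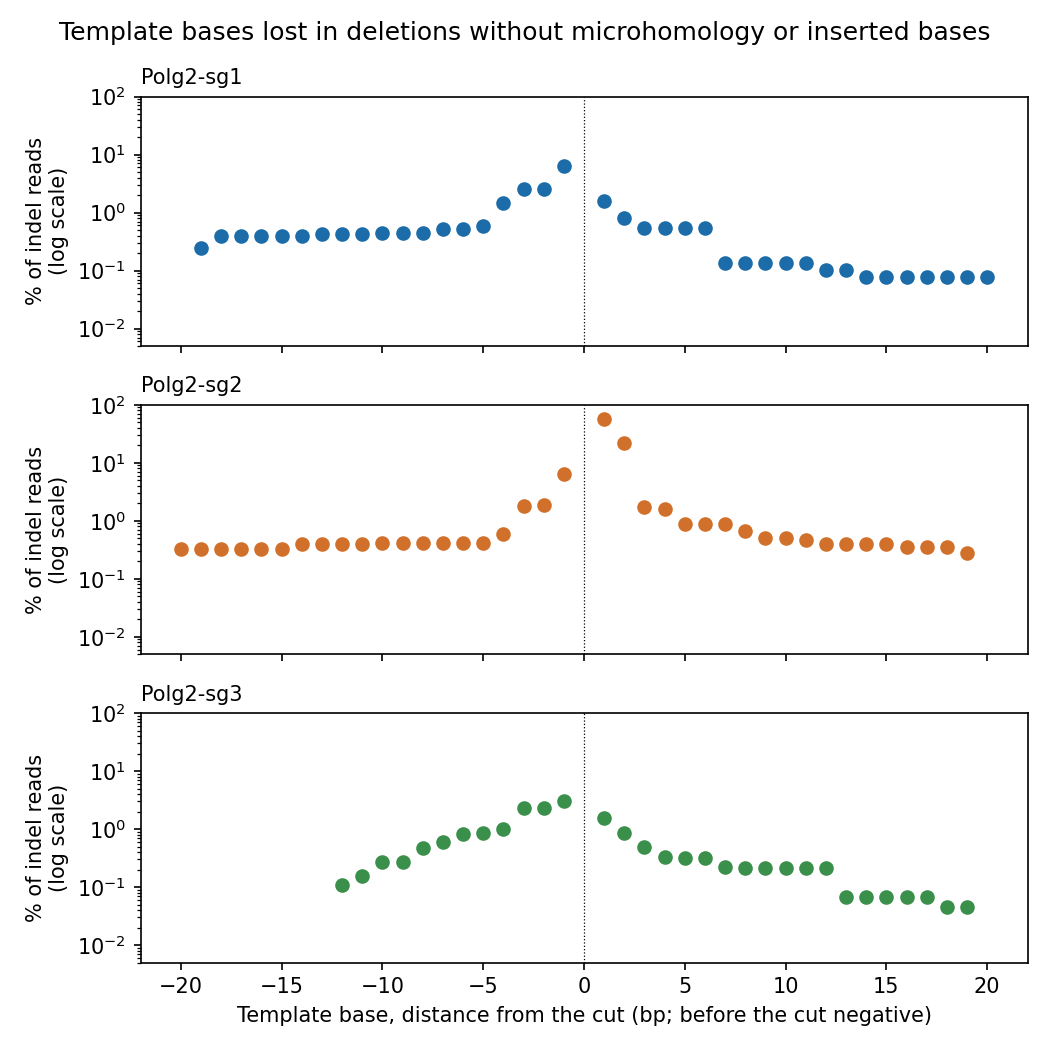
Share of indel reads (percent, log axis) in which a template base is missing, by its distance from the cut (bp), over deletions with clean edges in the KO library of each Polg2 site; each point is 1 base within 20 bp, and bases lost in no read have no point. The base most often missing is the last before the cut at sg1 (6.22%) and sg3 (3.05%) and the first after it at sg2 (56.0%).

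Deletions were recorded with microhomology far more often at sg1 than at the other sites, mainly through 1 allele. Among deletions of 2 bp or more, at least 2 bp of microhomology was found in 50 of 1073 reads at sg3, or 4.66% (3.48 to 6.10), in 67 of 1235 at sg2, or 5.43% (4.23 to 6.84), and in 672 of 1217 at sg1, or 55.2% (52.4 to 58.0). The difference was -50.6 points for sg3 minus sg1 (-53.5 to -47.4) and -49.8 points for sg2 minus sg1 (-52.8 to -46.7), both past Fisher's exact test. For sg3 minus sg2 it was -0.765 points (-2.56 to 1.06), which did not pass (Fisher's exact test, adjusted p = 0.479 over 210 pairs). Thus 2 of 3 pairs passed, against 85.7% of all pairs of sites.

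A single allele carried the sg1 share. This was a deletion of 2 bp flanked by 2 bp of microhomology, with 591 of those 672 reads, or 87.9%; without it the share at sg1 was 12.9%. In its reads both matched parts ran up to the cut and overlapped by 2 bases, which requires the 2 template bases before the cut to equal the 2 after it. Any loss of 2 bases touching the cut at sg1 is therefore recorded with 2 bp of microhomology, however the ends were joined. At sg2 the loss of the first 2 bases after the cut, in 805 reads, was recorded with none. The part of the differences from sg1 that rests on its 2 bp deletion thus depends on the bases at each cut. The route of joining was not tested. At sg2 the leading allele of this kind was a deletion of 6 bp with 23 reads, and at sg3 a deletion of 8 bp with 22 reads. The longest microhomology was 6 bp at sg1, 10 bp at sg2 and 8 bp at sg3, the last in 4 reads of a 22 bp deletion. With 3 bp required, the sg2 minus sg1 difference was -0.522 points and no longer passed (Fisher's exact test, adjusted p = 0.461). The sg3 minus sg1 difference was then -2.09 points and still passed (Fisher's exact test, adjusted p = 2.9e-05). Without alleles under 10 reads, sg3 minus sg2 turned to 1.22 points and did not pass.

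At sg3 a set of deletions carried 1 base at the junction that neither matched part covered. Deletions with inserted bases made up 5.96% of indel reads at sg3 (5.56 to 6.38), with 780 reads, of which 751 held exactly 1 such base and 748 of these lost bases only before the cut. By the count of template bases missing before the cut, the reads with 1 such base numbered 291 at 2 bases, 168 at 3, 170 at 5 and 45 at 6. Clean-edged reads at the same steps numbered 0, 177, 0 and 28. The 0 at 2 bases was fixed by the scoring. An sg3 allele of 83 reads lost 2 bp, with 1 base missing before the cut and 1 bp of microhomology. It requires the second base before the cut to equal the first after it. A loss of the 2 bases before the cut is therefore recorded as this allele and never as clean. The class held 1.53% of indel reads at sg1 (1.32 to 1.75) and 2.66% at sg2 (2.18 to 3.20), counting those under 20 bp. At sg1 the leading one lay on the other side, a net loss of 1 bp with 2 bases missing after the cut, in 95 reads. Each matched part ends at the cut at the latest. An inserted base and a template base kept beside the cut, as in a deletion that starts 1 base away from it, therefore cannot be told apart.

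Allele diversity followed the leading alleles. An allele is here a combination of both junction positions, net length and microhomology length. The KO libraries held 91 distinct indel alleles at sg1, 131 at sg2 and 83 at sg3, although sg2 had the fewest indel reads. In 1000 indel reads, 43.5, 71.9 and 45.5 alleles would be expected at sg1, sg2 and sg3. Over the 21 sites this number ran from 32.1 to 133 with a median of 71.9, which is the value of sg2. The effective number of alleles, the count of equally frequent alleles that would give the same chance of drawing the same allele in a pair of reads, was 1.62 at sg1, 4.44 at sg2 and 1.46 at sg3. It ranked 18th, 7th and 20th among the 21 sites.

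The most frequent allele held 78.2%, 33.9% and 82.8% of indel reads at sg1, sg2 and sg3, and the first 5 alleles held 89.6%, 87.3% and 89.3%. It took 6 alleles at sg1, 10 at sg2 and 6 at sg3 to reach 90% of indel reads, and 43, 94 and 44 to reach 99%. Alleles seen in a single read numbered 19, 35 and 12. With the most frequent allele left out, the order of the effective number turned round, to 10.7 at sg1, 3.95 at sg2 and 19.004 at sg3. The minor products of sg2 were thus concentrated on the 1 bp insertion and the 2 bp deletion, and those of sg3 were spread most evenly. There is no test of these numbers, since each site has 1 library.

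**Figure D4:**
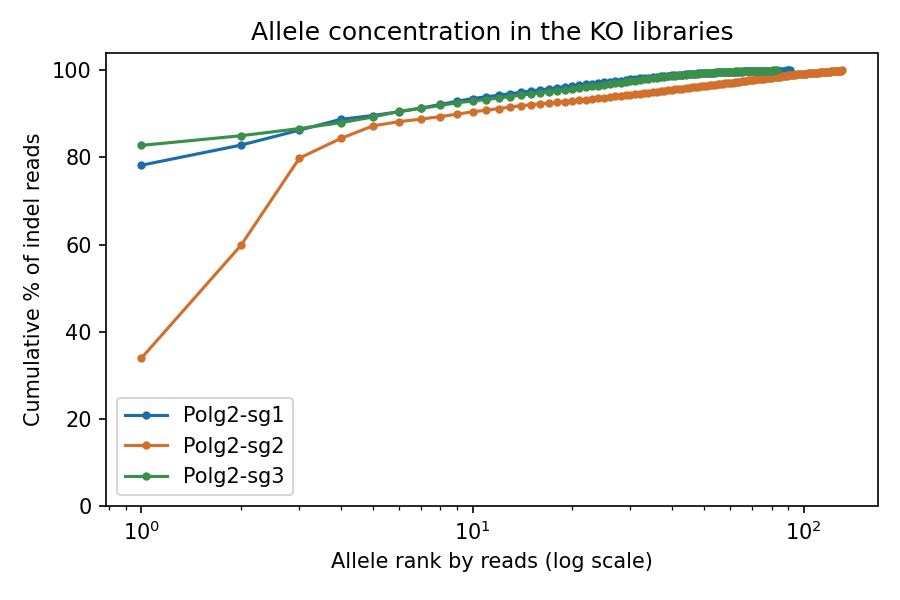
Cumulative share of indel reads (percent) over alleles ranked by reads (log axis) in the KO libraries of the 3 Polg2 sites; each point is 1 allele. The curves start at 78.2% for sg1, 33.9% for sg2 and 82.8% for sg3 and lie between 87.3% and 89.6% by allele 5.

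Despite these different spectra, the share of indel reads that change length by other than a multiple of 3 was nearly the same for the 3 guides. This frameshift share was 12566 of 13091 indel reads at sg3, or 95.99% (95.6 to 96.3), 3884 of 4024 at sg2, or 96.5% (95.9 to 97.1), and 12261 of 12772 at sg1, or 95.999% (95.6 to 96.3). The difference was -0.00945 points for sg3 minus sg1 (-0.488 to 0.470), -0.531 for sg3 minus sg2 (-1.16 to 0.161) and 0.522 for sg2 minus sg1 (-0.172 to 1.15). Fisher's exact test gave adjusted p = 0.975, 0.142 and 0.152 for these pairs, so 0 of 3 passed, also at unadjusted p under 0.05. Of all 210 pairs of sites 93.3% passed. The intervals of the 3 differences extend from -1.16 to 1.15 points.

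The range over the guides of a gene was 0.531 points for Polg2, against 3.43 for Polg, 5.84 for Kif11 and 11.1 for Hnf4a, the other genes cut at 3 sites in the KO arm; these ranges were not tested against each other. The leading allele of every library shifted the frame, so setting it aside kept every in-frame read and only lowered the total. The frameshift share was then 76.7% at sg3, 94.7% at sg2 and 81.6% at sg1, and all 3 differences passed Fisher's exact test. They follow from the unequal shares of the leading alleles, 82.8% at sg3, 33.9% at sg2 and 78.2% at sg1. No further difference in frame outcome can be read from them. Without alleles under 10 reads, sg2 stood above sg1 by 2.13 points and sg3 below sg2 by 2.22 points, both past the test. Counting each allele once, 62 of 91, 96 of 131 and 59 of 83 alleles shifted the frame at sg1, sg2 and sg3, or 68.1%, 73.3% and 71.1%. Equally frequent frame classes would give 66.7%. Alleles of 1 library are not independent draws and their number depends on depth. No interval is given for these shares, and they were not tested against 66.7%.

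The guides differed in the class of shift. Net lengths 1 above a multiple of 3, such as the 1 bp insertion and the 2 bp deletion, made up 84.6% of indel reads at sg1 (84.0 to 85.3), 52.7% at sg2 (51.2 to 54.3) and 87.5% at sg3 (86.9 to 88.0). Net lengths 1 below a multiple of 3, such as the 1 bp deletion and the 2 bp insertion, made up 11.4% at sg1 (10.8 to 11.9), 43.8% at sg2 (42.2 to 45.3) and 8.51% at sg3 (8.04 to 9.001). Over the 21 sites the share of this second class ran from 3.31% to 49.4% with a median of 16.96%. At sg2 the leading allele, the loss of the first base after the cut, belongs to one class and held 33.9%. The 1 bp insertion and the loss of the first 2 bases after the cut, of the other class, followed.

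Counted over all reads, frame-shifting indels were present in 62.7% of KO reads at sg1 (62.0 to 63.4), 91.3% at sg2 (90.5 to 92.2) and 91.3% at sg3 (90.9 to 91.8). In-frame indels were present in 2.61%, 3.29% and 3.82% of KO reads at sg1, sg2 and sg3, so that reads with no indel outnumbered in-frame ones 6777 to 511 at sg1, 228 to 140 at sg2 and 665 to 525 at sg3. The EV libraries held 1 in-frame indel read at sg1 and 0 at sg2 and sg3.

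**Figure D5:**
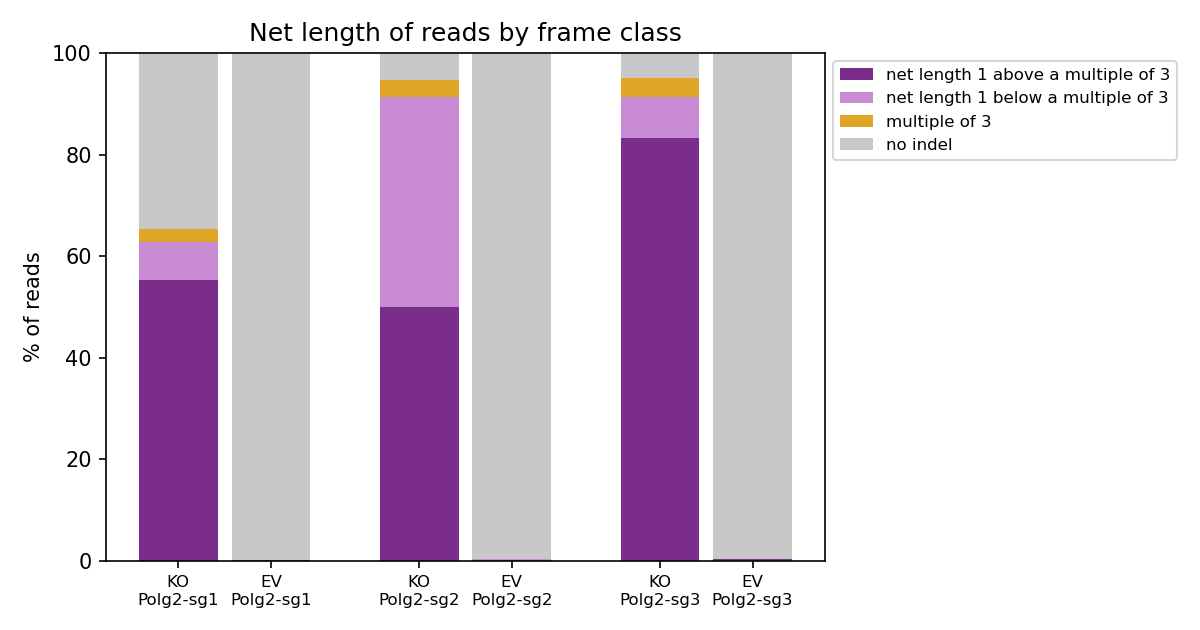
Stacked share of reads (percent of all reads) by net length class in the KO and EV library of each Polg2 site. Lengths 1 above a multiple of 3 fill 55.3% of KO reads at sg1, 49.9% at sg2 and 83.3% at sg3; EV bars are almost wholly reads with no indel.

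Most in-frame reads held deletions under 20 bp, 280 of 511 at sg1, 91 of 140 at sg2 and 370 of 525 at sg3. Insertions of 20 bp or more came next with 191, 23 and 114 reads, followed by shorter insertions with 15, 6 and 41 and longer deletions with 25, 20 and 0. At sg1, 305 in-frame reads were deletions and 206 insertions; the leading alleles were the loss of the 3 bases before the cut with 109 reads, the insertion of 51 bp with 50 reads and the loss of 6 bases after the cut with 44 reads. At sg2, 111 in-frame reads were deletions, led by a 6 bp deletion with 2 bp of microhomology in 23 reads, the loss of the 3 bases before the cut in 21 and a 3 bp deletion with 1 inserted base in 15. At sg3 the in-frame deletions were led by the loss of the 3 bases before the cut in 177 reads, and the insertions of 3 bp and 33 bp followed with 41 and 32 reads. The 3 bp deletion before the cut was thus among the first 3 in-frame alleles of every guide. It held 0.853%, 0.522% and 1.35% of indel reads at sg1, sg2 and sg3.

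The few indel reads of the EV libraries matched the products of the guide at the same site. The leading KO allele of the site accounted for 16 of 23 EV indel reads at sg1, or 69.6% (47.1 to 86.8), 5 of 7 at sg2, or 71.4% (29.0 to 96.3), and 35 of 36 at sg3, or 97.2% (85.5 to 99.9). At sg2 this allele was the loss of the first base after the cut, at sg1 and sg3 the 1 bp insertion. Alleles found in the KO library of the site covered 23 of 23, 7 of 7 and 35 of 36 EV indel reads, including the insertions of 47 and 48 bp and the 2 bp microhomology deletion at sg1. Where these reads came from was not tested. They made up at most 0.304% of an EV library.

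By the total variation distance between distributions of net indel length, 0 for identical and 1 for disjoint, sg1 and sg3 lay 0.0961 apart, while sg2 lay 0.617 from sg3 and 0.581 from sg1. The nearest sites of the series were Polg-sg3 at 0.0858 for sg1, Fah-sg1 at 0.184 for sg2 and Hnf4a-sg3 at 0.0764 for sg3. Of the 20 other sites, sg3 ranked 2nd and sg2 15th from sg1, sg1 ranked 15th and sg3 17th from sg2, and sg1 ranked 3rd and sg2 15th from sg3. These distances are descriptions with no test, and sites with a large share of 1 bp insertions are close by that share alone.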

How the data were processed

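Genomic DNA of hepatocytes was amplified around each cut site and sequenced, as the labels' protocols describe. The tools deepTools, Bowtie2, bcl2fastq, R 4.2.1 and the build mm10 are listed, with no role, per the submitters' processing notes. Which program called the junctions is not stated there. The deposited tables hold 1 line per read with positions and lengths in bp, per the file headers, and no bases. Per read, the template bases skipped less the read bases skipped gave the deposited indel length, and microhomology was the stretch that the 2 matched parts share. Deletions are positive there; signs were turned here.

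Reads with a net length other than 0 were counted as indel reads. Pairs of libraries went through Fisher's exact test, two-sided, at a threshold of 0.05, adjusted by Benjamini-Hochberg over 21 sites against EV or over all 210 pairs of the 2-week sgRNA libraries (KO, or coinjection at the 4 Lats sites). Expected alleles come from the hypergeometric distribution. A count of 0 allows up to 3 reads. Named alleles are the 10 with the most reads per site, the leading one of each class and the first 3 in-frame ones. The labels alone define the 6 libraries, but this set of libraries and the lists were chosen for description with earlier results of these data known. The counting was checked on made-up reads of known content, and Fisher's exact test with its adjustment on simulated independent reads. The simulated shares were far from those of the EV libraries. That simulation does not cover reads copied from the same molecule or variation from mouse to mouse. At the Tfam-sg2-3 site 1 of the 2 tables of each sample was not used. Alternatives left out rare alleles, the leading allele or 1 bp indels, counted each allele once, took each tile alone or moved the minima; leaving out alleles under 0.1% of indel reads was chosen after seeing the data. Tests ran in scipy 1.17.1, tables in pandas 2.3.3 and numpy 2.4.6, and plots in matplotlib 3.10.9, under Python 3.11.15.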

Additional observations from a re-analysis of the deposited data

Results flagged for a closer look

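Equal-length replacements, reads with net length 0 in which template bases at the cut were replaced, are not counted as indels. At sg3 they made up 16 of 665 KO reads of net length 0, or 2.41% (1.38 to 3.88), against 22 of 11805 in EV, or 0.186% (0.117 to 0.282). This is above the level of the control library (difference 2.22 points, 1.30 to 3.69; two-sided Fisher's exact test, p = 7.96e-11 adjusted over 3 sites). In 15 of the 16 KO reads the first base after the cut was replaced, against 4 of 22 in EV. As a share of all reads the order was the other way round, 0.116% in KO and 0.186% in EV. At sg1 the share of net-0 reads was 0.251% in KO and 0.219% in EV (difference 0.0320 points, -0.0902 to 0.193), and at sg2 0.877% in KO and 0.650% in EV (difference 0.227 points, -0.505 to 2.50); neither passed (Fisher's exact test, adjusted p = 0.661 for both).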

How the results depend on the processing

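No paired analysis was possible because each site has 1 library per group, and for the same reason no library could be left out in turn. Of 99 alternatives to the 18 tested differences, 64 kept the direction and the side of the threshold, among them each alternative to the 3 differences between KO and EV. All values here are in percentage points unless said otherwise. For the indel share, sg3 minus sg2 passed the test at 0.932 without alleles under 10 reads. It passed at 2.68 with indels reaching farther than 5 bp from the cut counted as unedited, and was -20.3 with 1 bp indels counted so. For the insertion share, leaving out the most frequent allele, an insertion at sg1 and sg3 and a deletion at sg2, gave 12.7 for sg2 minus sg1, -1.87 for sg3 minus sg1 and -14.6 for sg3 minus sg2. Counting each allele once gave -3.25, 1.51 and 4.76 for the same pairs, past the threshold for none. The differences were smaller there and fewer items were counted. Leaving out 1 bp indels gave -4.27 for sg3 minus sg1, past the threshold with the sign turned. For the frameshift share, sg2 minus sg1 passed at 2.13 without alleles under 10 reads, 1.15 without alleles under 0.1%, 13.1 without the most frequent allele and 14.2 without 1 bp indels. For sg3 minus sg2 the values under these settings were -2.22, -1.17, -18.0 and -20.3. For sg3 minus sg1 the last 2 were -4.91 and -6.09, and counting each allele once gave 2.95, not past the threshold. Leaving out the most frequent allele or 1 bp indels takes away frame-shifting reads only and keeps every in-frame read. For the microhomology share, sg2 minus sg1 was -0.431 and sg3 minus sg1 -9.45 with each allele counted once, neither past the threshold; with 3 bp required, sg2 minus sg1 was -0.522, not past it, and sg3 minus sg2 -1.57, past it. Without alleles under 10 reads sg3 minus sg2 was 1.22, not past it. For indels of 20 bp or more, sg2 minus sg1 passed at -4.41 without alleles under 10 reads, -3.13 without alleles under 0.1% and -15.5 without the most frequent allele, where sg3 minus sg2 was 2.95, 1.58 and 11.3; sg3 minus sg1 was -9.55 with each allele counted once, not past the threshold, and sg2 minus sg1 turned to 11.9 in that setting and to 0.277 with 10 bp as the minimum, past it in neither. Distinct alleles at sg1, sg2 and sg3 numbered 31.9, 47.2 and 33.6 in 500 reads, 55.99, 102.3 and 56.96 in 2000, and 42.04, 63.5 and 44.6 in 1000 without alleles of 1 read. The effective number was 10.7, 3.95 and 19.004 without the most frequent allele and 1.61, 3.65 and 1.44 by net length alone. The alleles under 10 reads held 8.10% of indel reads at sg2, against 1.14% at sg1 and 0.894% at sg3, so that limit weighs most on sg2, the library with the fewest reads.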

Other observations

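Seen from the cut, 17 alleles had the same positions, length and microhomology in the KO libraries of all 3 guides. They held 89.3% of indel reads at sg1, 67.1% at sg2 and 90.8% at sg3. At sg1 and sg3 most of this was the 1 bp insertion, with 78.2% and 82.8%. At sg2 the loss of the first base after the cut held 33.9% and the 1 bp insertion 25.9%. No such overlap is given for the guides of other genes, so it cannot be called particular to Polg2. Apart from the 1 bp insertion they include the insertions of 2 and 3 bp, the 1 bp deletion on either side, the losses of 3 and of 4 bases before the cut, and clean insertions of 44, 47, 48 and 51 bp. The insertion of 47 bp held 105, 4 and 46 reads at sg1, sg2 and sg3, and that of 51 bp held 50, 1 and 24 reads. The loss of 4 bases before the cut held 111 reads at sg1, 5 at sg2 and 15 at sg3. Pair by pair, sg3 and sg2 had 28 alleles in common, 33.7% of those of sg3 and 21.4% of those of sg2. Then sg3 and sg1 had 26 alleles in common, 31.3% of those of sg3 and 28.6% of those of sg1, and sg2 and sg1 had 23, 17.6% of those of sg2 and 25.3% of those of sg1. Equal lengths do not show that the inserted bases were the same, which the tables cannot tell.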
